A study of Mus musculus with 16 samples.

Results

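The genes described here copy DNA: 43 genes of DNA replication and of the passage from G1 into S phase, listed by symbol, were followed over time in mouse macrophages that were turning into osteoclasts. The cells were bone marrow-derived macrophages of 5-week-old male C57BL/6 mice. M-CSF keeps macrophages alive and dividing, and RANKL turns them into osteoclasts, the cells that resorb bone. By its title, the study concerns α-ketoglutarate as an inhibitor of osteoclast formation. At 0 h there were 2 arrays of cells given M-CSF with DW, the labels' name for the control treatment, and without RANKL. All 14 other arrays had M-CSF and RANKL, with DW at 3, 6, 12, 24, 48 and 72 h or with 1 mM dimethyl α-ketoglutarate (αKG, a cell-permeable ester of a tricarboxylic acid cycle intermediate) at 0.5, 1, 3, 6, 12, 24, 48 and 72 h. The labels join neighbouring times into 8 groups of 2 arrays: 0 h; early for 3 and 6 h, intermediate for 12 and 24 h, and late for 48 and 72 h in each arm; and a fast αKG group (0.5 and 1 h), which differs from 0 h in both RANKL and αKG. Apart from 0 h, each condition and time was 1 array, and the labels name no separate culture or animal for any of them. The p-values thus do not measure a spread between replicate cultures or animals. Where these 8 groups are fitted, the spread within groups holds the change between the 2 times of a group. Where time or arm is a block, the spread is what differs between the arms from time to time. Each gene was read from the array feature with the highest mean among those that name it alone. By this rule 42 of the 43 genes were measured, out of 22180 genes on the array; Rfc4 shares its feature with Eif4a2 and has no value. All 42 were among the 15526 genes tested, which excludes the lowest 30% by mean value.

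A cell copies its DNA once per division. In G1 the origin recognition complex, Cdc6 and Cdt1 load the ring-shaped MCM2-7 helicase onto origins. In S phase Cdc45 and the GINS complex turn it into a working helicase, polymerases and primase make new strands on the sliding clamp PCNA, and enzymes of nucleotide supply, lagging-strand maturation and chromatin assembly follow. Many of these genes are known targets of E2F transcription factors, which retinoblastoma-family proteins hold in check until cyclin D and its kinases act. Macrophage precursors divide under M-CSF and osteoclasts are known to leave the cell cycle before they fuse.

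E2F motifs were a sequence feature that part of these genes shared, so 4 promoters that hold them at least 2 times are printed first. RefSeq promoter windows (GRCm38.p6, 250 bases before to 50 after the start) were matched by symbol for 36 of the 43 genes. Of these, 32 had 1 window and the others more, and a gene was counted where any of its windows matched. A match to TTTCGCGC, TTTGGCGC or TTTCCCGC on either strand was found for 13 of the 36 (36.1%), against 2.12% of all 27025 genes with a window and 3.59% of the tested genes. Each motif alone was found for 19.4%, 13.9% and 16.7% of the replication genes, and for 0.374%, 0.585% and 1.24% of all genes. The windows below run from 250 bases before the start to the first 30 bases after it, 5′ to 3′ on the gene's strand, and capitals mark the E2F matches. They lie at chr8:75109259-75109538 (plus strand, Mcm5), chr1:128359676-128359955 (minus strand, Mcm6), chr5:138171854-138172133 (minus strand, Mcm7) and chr5:151651179-151651458 (minus strand, Rfc3).
Mcm5: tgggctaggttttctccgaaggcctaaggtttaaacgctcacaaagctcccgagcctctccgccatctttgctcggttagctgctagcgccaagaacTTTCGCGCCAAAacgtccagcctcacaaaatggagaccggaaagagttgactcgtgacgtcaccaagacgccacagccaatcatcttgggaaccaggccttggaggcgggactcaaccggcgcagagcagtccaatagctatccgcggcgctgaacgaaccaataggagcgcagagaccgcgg
Mcm6: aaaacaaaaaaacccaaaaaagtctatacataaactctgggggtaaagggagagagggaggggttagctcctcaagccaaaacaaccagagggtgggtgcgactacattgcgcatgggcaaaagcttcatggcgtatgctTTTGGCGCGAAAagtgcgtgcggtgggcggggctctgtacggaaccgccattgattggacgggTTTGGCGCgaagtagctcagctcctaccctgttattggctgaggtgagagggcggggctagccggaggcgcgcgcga
Mcm7: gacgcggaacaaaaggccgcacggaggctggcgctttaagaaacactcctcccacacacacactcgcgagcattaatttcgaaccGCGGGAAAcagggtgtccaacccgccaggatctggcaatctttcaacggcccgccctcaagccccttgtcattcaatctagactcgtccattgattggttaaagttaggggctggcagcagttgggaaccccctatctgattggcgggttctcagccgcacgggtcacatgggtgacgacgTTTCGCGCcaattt
Rfc3: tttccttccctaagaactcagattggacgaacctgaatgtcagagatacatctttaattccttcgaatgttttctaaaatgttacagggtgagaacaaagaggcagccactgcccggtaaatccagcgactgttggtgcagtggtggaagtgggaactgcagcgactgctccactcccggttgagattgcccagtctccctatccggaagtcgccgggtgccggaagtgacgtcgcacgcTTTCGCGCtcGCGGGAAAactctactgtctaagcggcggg
In Mcm5 the capitals are a pair of overlapping matches on opposite strands, which begin 153 and 149 bases before the start. Mcm6 holds the same kind of overlapping pair (110 and 106 bases before) and another match 47 bases before. In Mcm7 the matches begin 165 bases before the start and 16 bases after it, and in Rfc3 10 bases before the start and at it. Mcm3 is the fifth gene with at least 2 matches, but they lie after the start. The other genes with a match are Orc1, Cdc6, Cdt1, Gins3, Pola1, Pold1, Lig1 and Uhrf1. For Mcm7, Lig1 and Uhrf1 there are also windows without a match, and the Mcm7 window printed is the one that matches. The CCAAT box (CCAAT) was found for 61.1% of the replication genes against 41.1% of all genes, and the GC box (GGGCGG) for 77.8% against 38.2%. The CHR element (TTTGAA) was found for 11.1% against 20.2%. The replication windows were richer in G and C (median 62.2%) than those of all genes (52.8%), and none of these counts was adjusted for that. Some windows lie inside the annotated span of their gene and not before it. Among these are the windows of Cdc6 and Orc1, which hold a match, and of E2f1, Dut and Rfc1, which do not. A window without a match thus says nothing of the bases outside it. A match describes the letters in a window and does not show that a factor binds there.

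Array medians lay between 4.84 and 4.93 log2, and the 2 arrays at 0 h differed by an SD of 0.196 over all tested genes and 0.109 over the 42 replication genes. The DW array at 72 h stood apart from the others (mean correlation with them 0.929, against 0.960 to 0.975 for the other 15). Macrophage markers were high in every array (mean of 7 genes 10.4 to 11.3 log2). The mean of 8 osteoclast markers went from 5.18 at 0 h to 11.33 with DW and 9.52 with αKG at 72 h. Of other marrow cells, the 9 markers of neutrophils and their precursors were all above the filter, with a mean of 7.46 to 7.49 at 0 h. That mean was 6.71 to 6.73 at 24 h and 5.30 to 5.55 at 48 h, and at 72 h it was 4.89 with DW and 5.02 with αKG. All 4 mast cell markers were below the filter, as were 4 of 5 measured T and NK cell markers and 2 of 5 measured B cell markers. Above it were 3 of 4 progenitor markers, 5 of 6 stromal markers and 1 of 2 measured erythroid markers. The progenitor mean was 5.08 to 5.09 at 0 h, and 4.64 with DW and 4.28 with αKG at 72 h. The stromal mean was 4.77 to 4.83 at 0 h, and 5.325 with DW and 5.14 with αKG at 72 h.

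In both arms the replication genes stood low at 12 h, high at 24 h and low again at 72 h. With DW, the median of the 42 genes relative to 0 h was -0.40, -0.46 and -0.71 log2 at 3, 6 and 12 h, then 0.37 at 24 h and -0.08 and -1.84 at 48 and 72 h. With αKG it was -0.10 and -0.12 at 0.5 and 1 h, -0.36, -0.91 and -1.16 at 3, 6 and 12 h, then 0.04 at 24 h and -0.08 and -0.90 at 48 and 72 h. The DW array at 24 h was the highest of all 16 arrays for 38 of the 42 genes, and the DW array at 72 h the lowest for 37. In the αKG arm the lowest of the 6 later arrays was the one at 12 h for 32 genes and the one at 72 h for 3, while in the DW arm it was the one at 72 h for 40. For these counts of highest and lowest arrays the share over all tested genes was not computed, and the DW array at 72 h is the one that stood apart. Relative to 0 h, 40 of the 42 genes were higher with DW at 24 h (50.1% of all tested genes) and 1 at 72 h (49.4%). With αKG, 27 were higher and 15 lower than 0 h at 24 h (50.4% of all tested genes higher). At 72 h 0 were higher with αKG (49.7%). The αKG arm at 24 h was thus near its 0 h level in the median. Whether fewer dividing cells or less of each RNA per cell made a value low cannot be told apart in these bulk samples.

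**Figure D1:**
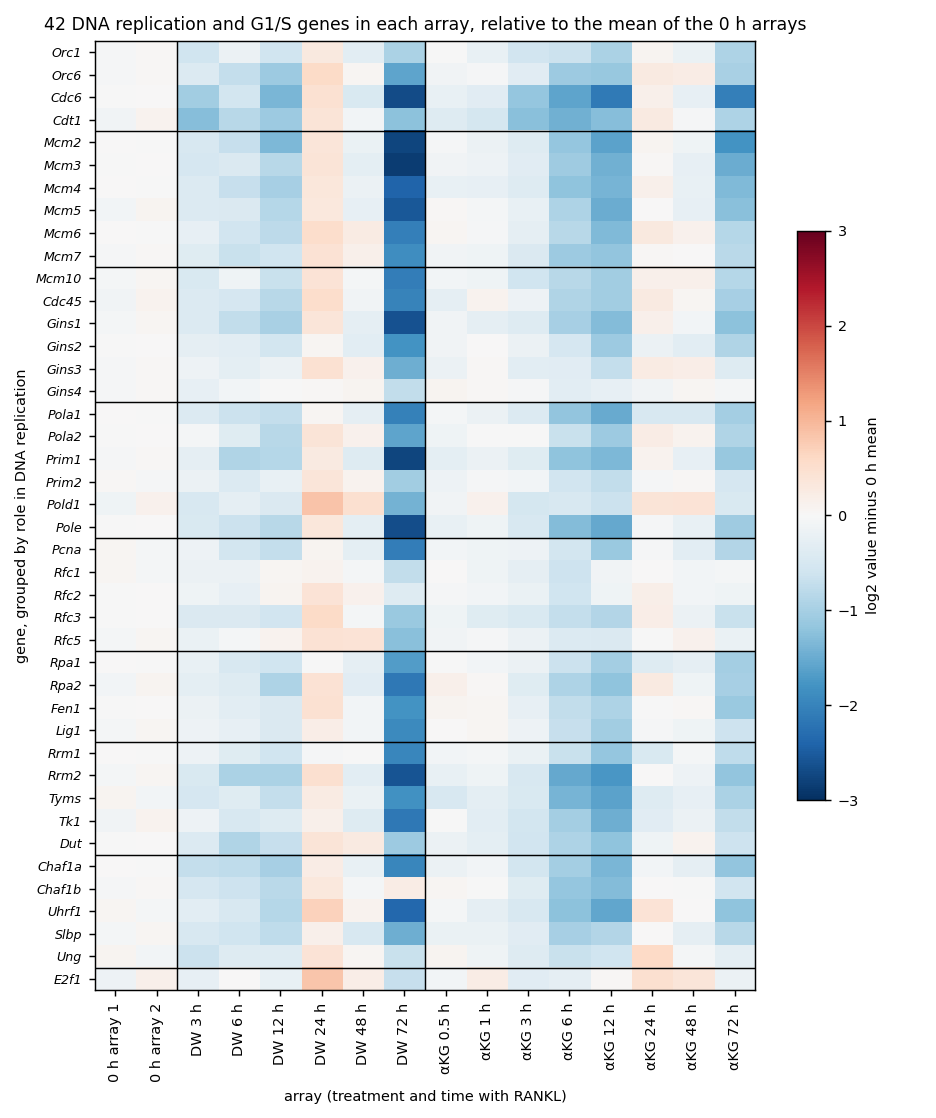
Each row is 1 of the 42 genes and each column 1 array; colour gives the log2 value minus the mean of the 0 h arrays, with black lines between roles and between arms. The 24 h column with DW is the reddest and the 72 h column with DW the bluest, and Chaf1b is the one gene above 0 h in that last column.

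The steps that both arms share could be tested, with the arm as a block and 1 array per arm at each time. From 12 to 24 h, 27 of the 42 genes rose and 0 fell, where 20.7% of all tested genes changed and 10.4% rose. The median difference was 1.12 log2, against -0.003 for all tested genes, and the range ran from 0.08 for Rfc1 to 2.05 for Cdc6. For 39 of the 42 genes both 24 h arrays stood above both 12 h arrays (28.7% of all tested genes); Rfc1, Rfc5 and Gins4 were the exceptions. From 48 to 72 h, 34 of 42 fell and 0 rose, where 19.6% of all tested genes changed and 11.4% fell. The median was -1.25 (-0.01 for all tested genes), from -2.11 for Mcm2 to -0.15 for Chaf1b. For 40 genes both 72 h arrays stood below both 48 h arrays (29.2% of all tested genes), and not for Rfc1 and Chaf1b. The other steps held no called replication gene in limma. From 3 to 6 h that was 0 of 42, with 0.0% of all genes called (1254 at an unadjusted p below 0.05) and 2 replication genes unadjusted. From 6 to 12 h it was 0 of 42 with 3.01% called and 2 unadjusted, and from 24 to 48 h 0 of 42 with 1.11% called and 4 unadjusted. Over all tested genes, 2750 had an unadjusted p below 0.05 from 6 to 12 h and 2076 from 24 to 48 h.

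From 12 to 24 h, 20 genes rose without the DW 12 h array (5.66% of all genes rose) and 20 without the αKG 24 h array (7.77%). Without the DW 24 h array 9 rose (4.55%), and without the αKG 12 h array also 9 (5.97%). The call was kept in all 4 of these fits by 9 genes, namely Cdc6, Cdt1, Orc1, Orc6, Mcm2, Pola2, Rfc3, Chaf1b and Ung. From 48 to 72 h, 23 genes fell without the DW 72 h array, the one that stood apart (7.66% of all genes fell), and 41 without the αKG 72 h array (15.0%). Without the DW 48 h array 10 fell (4.39%), and without the αKG 48 h array 10 (5.04%). At this step 8 genes kept the call in all 4 fits, namely Cdc6, Cdt1, Orc6, Mcm2, Mcm4, Pola2, Fen1 and Chaf1a. Every other called gene lost its call in at least 1 of the 4 fits of that step. The markers of neutrophils and their precursors also moved at these steps: 8 of 9 fell from 12 to 24 h, opposite to the replication genes, and 4 of 9 from 48 to 72 h. Of the 8 osteoclast markers 2 rose from 12 to 24 h and 4 from 48 to 72 h. Of the 7 macrophage markers 2 fell from 12 to 24 h (Mertk by 1.51 ± 0.20 and Adgre1 by 0.51 ± 0.11) and 3 rose from 48 to 72 h (Mertk by 1.66 ± 0.20, Adgre1 by 0.84 ± 0.11 and Csf1r by 0.79 ± 0.14). Of the 3 B cell markers tested, Cd79b fell from 12 to 24 h by 1.0 ± 0.26. Adgre1 lost its fall without any 1 of the 4 arrays (-0.53 to -0.49), Cd79b without DW 12 h, αKG 12 h or αKG 24 h (-0.72 at the weakest), and Csf1r its rise without DW 48 h (adjusted p = 0.054, limma). Over all genes 10.2% fell from 12 to 24 h and 8.21% rose from 48 to 72 h. The part of these cells in the result was not tested.

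**Figure D2:**
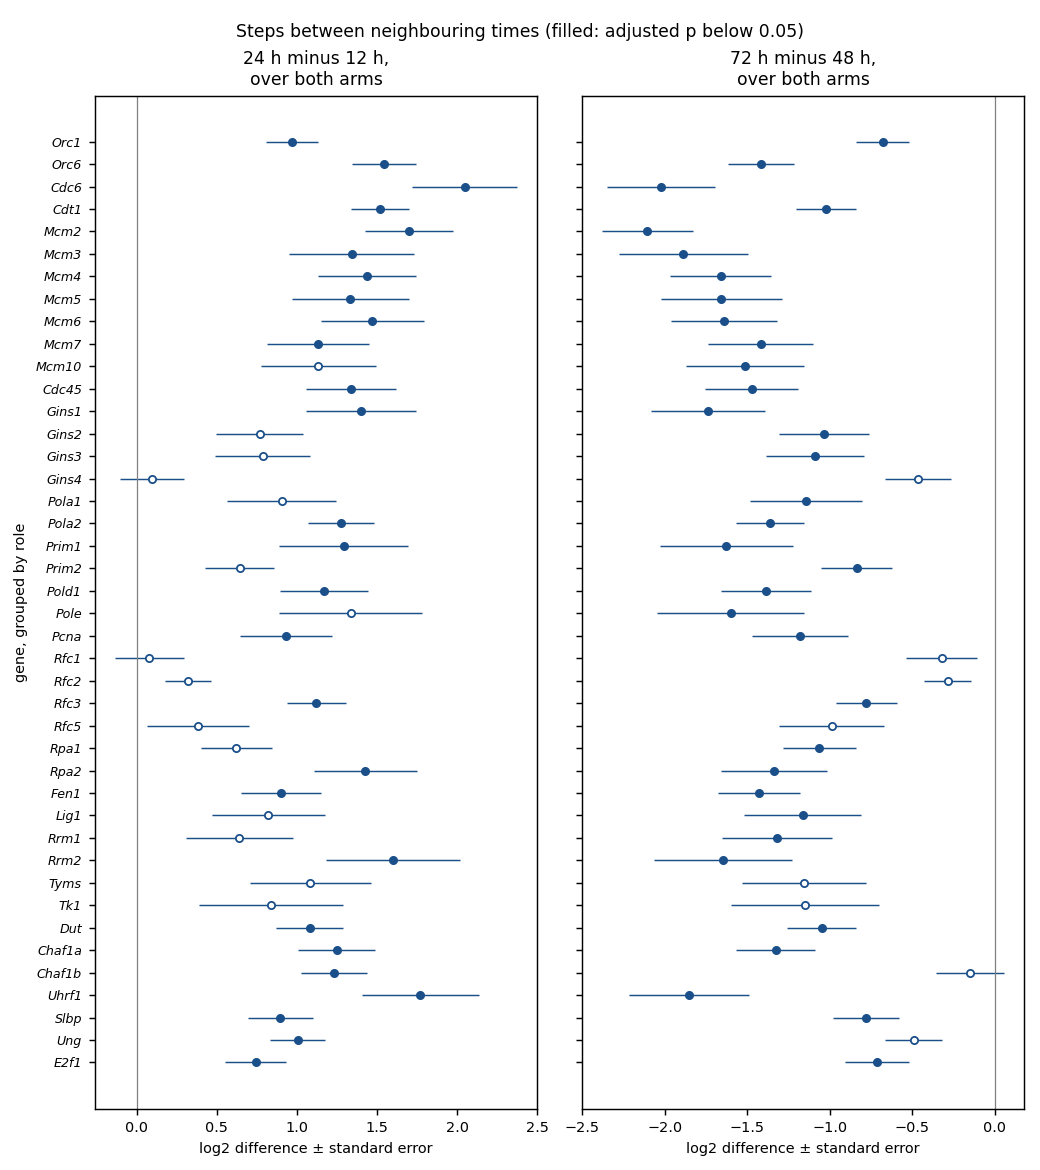
Points are log2 differences over both arms from limma, with bars of 1 standard error; filled points passed the adjusted threshold. On the left all 42 genes lie above 0 and 27 passed, and on the right all lie below 0 and 34 passed.

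All 4 origin licensing genes rose from 12 to 24 h, by 0.97 (Orc1) to 2.05 (Cdc6), and all 4 fell from 48 to 72 h, by 0.68 (Orc1) to 2.02 (Cdc6). Cdc6 read 8.02 and 8.03 at 0 h, and 6.99, 7.48, 6.65, 8.47, 7.58 and 5.34 at 3, 6, 12, 24, 48 and 72 h with DW. With αKG, Cdc6 read 7.81 and 7.69 at 0.5 and 1 h, then 6.86, 6.43, 5.91, 8.19, 7.78 and 5.97 at the later 6 times. Cdc6, the loader that brings the helicase to the origin complex, was thus low at 12 h in both arms, high at 24 h and lowest at 72 h with DW. Cdc6 rose by 2.05 ± 0.33 from 12 to 24 h (adjusted p = 0.0021, limma) and fell by 2.02 ± 0.33 from 48 to 72 h (adjusted p = 0.00318). That is 4.13-fold up and then 4.06-fold down. Orc6 read 7.93 and 8.01 at 0 h, and 7.55, 7.25, 6.88, 8.54, 8.04 and 6.40 at 3, 6, 12, 24, 48 and 72 h with DW. With αKG, Orc6 read 7.86 and 7.92 at 0.5 and 1 h, then 7.63, 6.88, 6.82, 8.24, 8.18 and 6.99 at the later 6 times. Orc6, a subunit of the origin recognition complex, followed the same order, with its peak in the DW array at 24 h. Orc6 rose by 1.54 ± 0.20 from 12 to 24 h (adjusted p = 0.000753, limma) and fell by 1.42 ± 0.20 from 48 to 72 h (adjusted p = 0.00178). Cdt1, which escorts the helicase to origins, had at 3 h the lowest value relative to 0 h of the 42 genes in either arm: it read 7.66 with DW and 7.69 with αKG, against 8.84 and 9.04 at 0 h. Cdc6, Cdt1 and Orc6 kept both calls whichever of the 4 arrays of a step was left out.

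All 6 MCM2-7 helicase genes rose from 12 to 24 h, by 1.13 (Mcm7) to 1.70 (Mcm2), and all 6 fell from 48 to 72 h, by 1.42 (Mcm7) to 2.11 (Mcm2). Mcm2 read 9.24 and 9.22 at 0 h, and 8.74, 8.54, 7.89, 9.59, 9.04 and 6.48 at 3, 6, 12, 24, 48 and 72 h with DW. With αKG, Mcm2 read 9.20 and 9.07 at 0.5 and 1 h, then 8.85, 8.06, 7.63, 9.32, 9.09 and 7.44 at the later 6 times. Mcm2, a subunit of the ring, was highest at 24 h and lowest at 72 h with DW, and kept both calls whichever array was left out. Mcm2 rose by 1.70 ± 0.28 from 12 to 24 h (adjusted p = 0.00229, limma) and fell by 2.11 ± 0.28 from 48 to 72 h (adjusted p = 0.00123). The fall is 4.30-fold, the largest of the 42 genes. Mcm3 read 9.58 and 9.59 at 0 h, and 9.08, 9.16, 8.75, 9.96, 9.29 and 6.74 at 3, 6, 12, 24, 48 and 72 h with DW. With αKG, Mcm3 read 9.48 and 9.43 at 0.5 and 1 h, then 9.25, 8.52, 8.16, 9.62, 9.33 and 8.11 at the later 6 times. Mcm3 had its lowest value at 72 h with DW, well under its value at 12 h, whereas with αKG the values at 12 and 72 h lay close together. Mcm3 rose by 1.34 ± 0.39 from 12 to 24 h (adjusted p = 0.0369, limma) and fell by 1.89 ± 0.39 from 48 to 72 h (adjusted p = 0.00922). Mcm3 lost the call of the rise at 24 h without the DW 12 h, DW 24 h, αKG 12 h or αKG 24 h array (0.98 to 1.70, adjusted p = 0.0644 to 0.263), and that of the fall at 72 h without the DW 48 h or αKG 48 h array (-1.91 to -1.86, adjusted p = 0.0638 to 0.0643).

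Of 6 helicase activation genes, 2 rose from 12 to 24 h (Cdc45 and Gins1) and 5 fell from 48 to 72 h. Cdc45 read 7.08 and 7.29 at 0 h, and 6.77, 6.69, 6.36, 7.72, 7.08 and 5.19 at 3, 6, 12, 24, 48 and 72 h with DW. With αKG, Cdc45 read 6.92 and 7.29 at 0.5 and 1 h, then 7.03, 6.28, 6.15, 7.46, 7.25 and 6.19 at the later 6 times. Cdc45, which joins the helicase when an origin fires, peaked at 24 h in both arms. Cdc45 rose by 1.34 ± 0.28 from 12 to 24 h (adjusted p = 0.00816, limma) and fell by 1.47 ± 0.28 from 48 to 72 h (adjusted p = 0.00636). Cdc45 lost the call of the rise at 24 h without the DW 24 h or αKG 12 h array (1.13 to 1.16, adjusted p = 0.0865 to 0.0991), and that of the fall at 72 h without the αKG 48 h array (-1.43, adjusted p = 0.0523). Gins1 read 7.32 and 7.41 at 0 h, and 6.95, 6.62, 6.39, 7.73, 7.09 and 4.75 at 3, 6, 12, 24, 48 and 72 h with DW. With αKG, Gins1 read 7.27 and 7.09 at 0.5 and 1 h, then 6.98, 6.36, 6.06, 7.52, 7.28 and 6.15 at the later 6 times. Gins1, a subunit of the GINS complex, was lowest of all in the DW array at 72 h. Gins1 rose by 1.40 ± 0.34 from 12 to 24 h (adjusted p = 0.0176, limma) and fell by 1.74 ± 0.34 from 48 to 72 h (adjusted p = 0.00765). Gins1 lost the call of the rise at 24 h without the DW 24 h or αKG 12 h array (1.12 to 1.19, adjusted p = 0.157 to 0.161), and that of the fall at 72 h without the DW 48 h or αKG 48 h array (-1.77 to -1.70, adjusted p = 0.0558 to 0.0581). Gins4, another GINS subunit, stayed between 7.74 and 8.56 in all 16 arrays and passed at neither step (0.10 ± 0.20 and -0.46 ± 0.20). Gins2 (0.77 ± 0.27), Gins3 (0.79 ± 0.30) and Mcm10, a factor that helps start the helicase (1.13 ± 0.36, adjusted p = 0.0505, limma), did not pass from 12 to 24 h, and all 3 fell from 48 to 72 h.

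Of the polymerase and primase genes, Prim1, Pola2 and Pold1 rose from 12 to 24 h, and all 6 fell from 48 to 72 h. Prim1 read 8.21 and 8.28 at 0 h, and 7.97, 7.35, 7.40, 8.52, 7.85 and 5.49 at 3, 6, 12, 24, 48 and 72 h with DW. With αKG, Prim1 read 7.96 and 8.07 at 0.5 and 1 h, then 7.89, 7.03, 6.89, 8.36, 7.99 and 7.10 at the later 6 times. Prim1, the catalytic subunit of primase, was lowest at 72 h with DW, 1.61 log2 below the αKG array of that time. Prim1 rose by 1.29 ± 0.40 from 12 to 24 h (adjusted p = 0.0483, limma) and fell by 1.63 ± 0.40 from 48 to 72 h (adjusted p = 0.0203). Prim1 lost the call of the rise at 24 h without the DW 12 h, DW 24 h, αKG 12 h or αKG 24 h array (0.92 to 1.66, adjusted p = 0.0747 to 0.312), and also with no filter, after quantile normalization or without the intensity trend (adjusted p = 0.0536 to 0.0589), and that of the fall at 72 h without the DW 48 h or αKG 48 h array (-1.64 to -1.61, adjusted p = 0.107). Pole read 7.90 and 7.92 at 0 h, and 7.44, 7.26, 7.07, 8.24, 7.60 and 5.24 at 3, 6, 12, 24, 48 and 72 h with DW. With αKG, Pole read 7.69 and 7.78 at 0.5 and 1 h, then 7.43, 6.61, 6.38, 7.87, 7.68 and 6.84 at the later 6 times. Pole, the catalytic subunit of the leading-strand polymerase, stood 1.60 log2 lower with DW than with αKG at 72 h. From 12 to 24 h Pole differed by 1.33 ± 0.45 and did not pass (adjusted p = 0.0625, limma), and it fell by 1.60 ± 0.45 from 48 to 72 h (adjusted p = 0.033). Pole lost the call of the fall at 72 h without the DW 48 h, DW 72 h or αKG 48 h array (-1.65 to -0.63, adjusted p = 0.106 to 0.152). Pola1 and Pola2, subunits of polymerase alpha, Prim2, the large primase subunit, and Pold1, the catalytic subunit of polymerase delta, lay between 0.64 (Prim2) and 1.27 (Pola2) from 12 to 24 h, and fell by 0.84 (Prim2) to 1.38 (Pold1) from 48 to 72 h.

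Of the clamp and its loader, Pcna and Rfc3 rose and then fell, while Rfc1, Rfc2 and Rfc5 passed at neither step. Pcna read 11.09 and 10.99 at 0 h, and 10.89, 10.50, 10.33, 11.11, 10.76 and 8.97 at 3, 6, 12, 24, 48 and 72 h with DW. With αKG, Pcna read 10.96 and 10.92 at 0.5 and 1 h, then 10.88, 10.48, 9.92, 11.00, 10.72 and 10.15 at the later 6 times. Pcna, the sliding clamp, had its DW array at 72 h below the other 15. Pcna rose by 0.93 ± 0.29 from 12 to 24 h (adjusted p = 0.0478, limma) and fell by 1.18 ± 0.29 from 48 to 72 h (adjusted p = 0.0197). Pcna lost the call of the rise at 24 h without the DW 12 h, DW 24 h, αKG 12 h or αKG 24 h array (0.63 to 1.24, adjusted p = 0.0625 to 0.326), and also with no filter or without the intensity trend (adjusted p = 0.0553 to 0.0578), and that of the fall at 72 h without the DW 48 h or αKG 48 h array (-1.26 to -1.10, adjusted p = 0.0824 to 0.127). Rfc5 read 7.49 and 7.63 at 0 h, and 7.36, 7.49, 7.65, 8.0, 7.97 and 6.31 at 3, 6, 12, 24, 48 and 72 h with DW. With αKG, Rfc5 read 7.47 and 7.53 at 0.5 and 1 h, then 7.39, 7.16, 7.13, 7.55, 7.69 and 7.37 at the later 6 times. Rfc5, a subunit of the loader, was lowest in the DW array at 72 h, while its αKG array at 72 h stayed within the range of the earlier ones. From 12 to 24 h Rfc5 differed by 0.38 ± 0.32 and did not pass (adjusted p = 0.477, limma), nor did its difference of -0.99 ± 0.32 from 48 to 72 h (adjusted p = 0.0559). Without the αKG 72 h array, Rfc5 passed at 72 h (-1.67, adjusted p = 9.72e-05, limma). Rfc1, the large loader subunit, ranged from 7.09 to 7.94 and Rfc2 from 7.14 to 8.15 over the 16 arrays.

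Of the genes for single-strand binding and lagging-strand maturation, Rpa2 and Fen1 rose from 12 to 24 h, and all 4 fell from 48 to 72 h. Rpa2 read 7.87 and 8.05 at 0 h, and 7.68, 7.58, 7.03, 8.40, 7.63 and 5.81 at 3, 6, 12, 24, 48 and 72 h with DW. With αKG, Rpa2 read 8.11 and 8.0 at 0.5 and 1 h, then 7.60, 7.04, 6.76, 8.24, 7.83 and 6.98 at the later 6 times. Rpa2, a subunit of the protein that coats single-stranded DNA, was highest at 24 h in both arms. Rpa2 rose by 1.43 ± 0.32 from 12 to 24 h (adjusted p = 0.0112, limma) and fell by 1.34 ± 0.32 from 48 to 72 h (adjusted p = 0.0174). Rpa2 lost the call of the rise at 24 h without the DW 24 h or αKG 12 h array (1.23 to 1.29, adjusted p = 0.107 to 0.108), and that of the fall at 72 h without the DW 48 h or αKG 48 h array (-1.43 to -1.25, adjusted p = 0.0823 to 0.112). Fen1 read 7.13 and 7.16 at 0 h, and 6.96, 6.82, 6.72, 7.60, 7.07 and 5.36 at 3, 6, 12, 24, 48 and 72 h with DW. With αKG, Fen1 read 7.22 and 7.21 at 0.5 and 1 h, then 6.91, 6.42, 6.22, 7.14, 7.18 and 6.03 at the later 6 times. Fen1, the nuclease that trims flaps on the lagging strand, read lower at 24 h with αKG than with DW. Its αKG array at 48 h was as high as that at 24 h, and both lay under those at 0.5 and 1 h. Fen1 rose by 0.90 ± 0.25 from 12 to 24 h (adjusted p = 0.0305, limma) and fell by 1.43 ± 0.25 from 48 to 72 h (adjusted p = 0.00452). Fen1 lost the call of the rise at 24 h without the DW 12 h, DW 24 h, αKG 12 h or αKG 24 h array (0.67 to 1.14, adjusted p = 0.0511 to 0.251). Lig1, the ligase that joins Okazaki fragments, and Rpa1, the large single-strand binding subunit, differed by 0.82 ± 0.35 and 0.62 ± 0.22 from 12 to 24 h, which did not pass.

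Among nucleotide supply genes, Rrm2 and Dut rose from 12 to 24 h, and Rrm1, Rrm2 and Dut fell from 48 to 72 h. Rrm2 read 8.49 and 8.59 at 0 h, and 8.09, 7.58, 7.58, 9.01, 8.22 and 5.94 at 3, 6, 12, 24, 48 and 72 h with DW. With αKG, Rrm2 read 8.31 and 8.40 at 0.5 and 1 h, then 8.05, 7.0, 6.78, 8.55, 8.38 and 7.35 at the later 6 times. Rrm2, the small subunit of ribonucleotide reductase, was low at 6 and 12 h in both arms and lower with αKG than with DW there. Rrm2 rose by 1.60 ± 0.42 from 12 to 24 h (adjusted p = 0.0232, limma) and fell by 1.65 ± 0.42 from 48 to 72 h (adjusted p = 0.0229). Rrm2 lost the call of the rise at 24 h without the DW 24 h, αKG 12 h or αKG 24 h array (1.15 to 1.84, adjusted p = 0.0605 to 0.205), and that of the fall at 72 h without the DW 48 h, DW 72 h or αKG 48 h array (-1.78 to -0.77, adjusted p = 0.0713 to 0.134). Tk1 read 9.37 and 9.58 at 0 h, and 9.33, 8.99, 9.08, 9.64, 9.08 and 7.34 at 3, 6, 12, 24, 48 and 72 h with DW. With αKG, Tk1 read 9.47 and 9.16 at 0.5 and 1 h, then 8.92, 8.46, 8.01, 9.14, 9.30 and 8.74 at the later 6 times. Tk1, the thymidine kinase of the salvage route, was the gene whose αKG effect differed most between phases: the αKG array was lower from 3 to 24 h and higher at 48 and 72 h. From 12 to 24 h Tk1 differed by 0.84 ± 0.45 and did not pass (adjusted p = 0.242, limma), nor did its difference of -1.15 ± 0.45 from 48 to 72 h (adjusted p = 0.107). Without the αKG 72 h array, Tk1 passed at 72 h (-2.08, adjusted p = 0.000427, limma). Tyms, thymidylate synthase, did not pass at either step (1.08 ± 0.38 and -1.16 ± 0.38).

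All 5 genes of chromatin assembly, histone mRNA and uracil repair rose from 12 to 24 h, and Uhrf1, Chaf1a and Slbp fell from 48 to 72 h. Uhrf1 read 8.57 and 8.46 at 0 h, and 8.19, 8.03, 7.65, 9.21, 8.63 and 6.15 at 3, 6, 12, 24, 48 and 72 h with DW. With αKG, Uhrf1 read 8.45 and 8.24 at 0.5 and 1 h, then 8.03, 7.29, 6.96, 8.93, 8.53 and 7.31 at the later 6 times. Uhrf1, which brings DNA methylation to newly copied strands, rose most of the 42 genes after Cdc6. Uhrf1 rose by 1.77 ± 0.36 from 12 to 24 h (adjusted p = 0.00745, limma) and fell by 1.85 ± 0.36 from 48 to 72 h (adjusted p = 0.0073). Uhrf1 lost the call of the rise at 24 h without the DW 24 h or αKG 12 h array (1.43 to 1.68, adjusted p = 0.0762 to 0.0878), and that of the fall at 72 h without the DW 48 h or αKG 48 h array (-1.87 to -1.83, adjusted p = 0.0546 to 0.0557). Chaf1a read 7.63 and 7.60 at 0 h, and 6.91, 6.86, 6.63, 7.85, 7.40 and 5.67 at 3, 6, 12, 24, 48 and 72 h with DW. With αKG, Chaf1a read 7.44 and 7.53 at 0.5 and 1 h, then 7.08, 6.61, 6.25, 7.53, 7.36 and 6.43 at the later 6 times. Chaf1a, the large subunit of chromatin assembly factor 1, was above its 0 h values only at 24 h with DW. Chaf1a rose by 1.25 ± 0.24 from 12 to 24 h (adjusted p = 0.00525, limma) and fell by 1.33 ± 0.24 from 48 to 72 h (adjusted p = 0.005). Chaf1a lost the call of the rise at 24 h without the DW 24 h or αKG 12 h array (1.03 to 1.06, adjusted p = 0.0668 to 0.0732). Slbp, which binds histone mRNA, had the smallest rise of the 5 (0.90). Ung, which removes uracil from DNA, differed by -0.49 ± 0.17 from 48 to 72 h, which did not pass.

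E2f1, the transcription factor of the list, rose and fell by less than the median of the 42 genes. E2f1 read 7.51 and 7.82 at 0 h, and 7.41, 7.67, 7.44, 8.49, 7.86 and 6.97 at 3, 6, 12, 24, 48 and 72 h with DW. With αKG, E2f1 read 7.57 and 7.88 at 0.5 and 1 h, then 7.33, 7.41, 7.71, 8.14, 8.02 and 7.49 at the later 6 times. Its arrays at 0 h were themselves 0.31 log2 apart, the widest gap of the 42 genes, and at 12 h the αKG array stood above the DW array. E2f1 rose by 0.74 ± 0.19 from 12 to 24 h (adjusted p = 0.0227, limma) and fell by 0.71 ± 0.19 from 48 to 72 h (adjusted p = 0.0299). E2f1 lost the call of the rise at 24 h without the DW 12 h, DW 24 h or αKG 12 h array (0.51 to 0.87, adjusted p = 0.064 to 0.231), and that of the fall at 72 h without the DW 48 h, DW 72 h or αKG 48 h array (-0.79 to -0.43, adjusted p = 0.106 to 0.174). Of the genes sorted by promoter, 10 of the 13 genes with an E2F match rose from 12 to 24 h (median 1.17) and 15 of the 22 measured genes whose window held none (median 1.08). From 48 to 72 h, 13 of 13 (median -1.38) and 16 of 22 (median -1.25) fell. The difference between these sets was not tested.

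**Figure D3:**
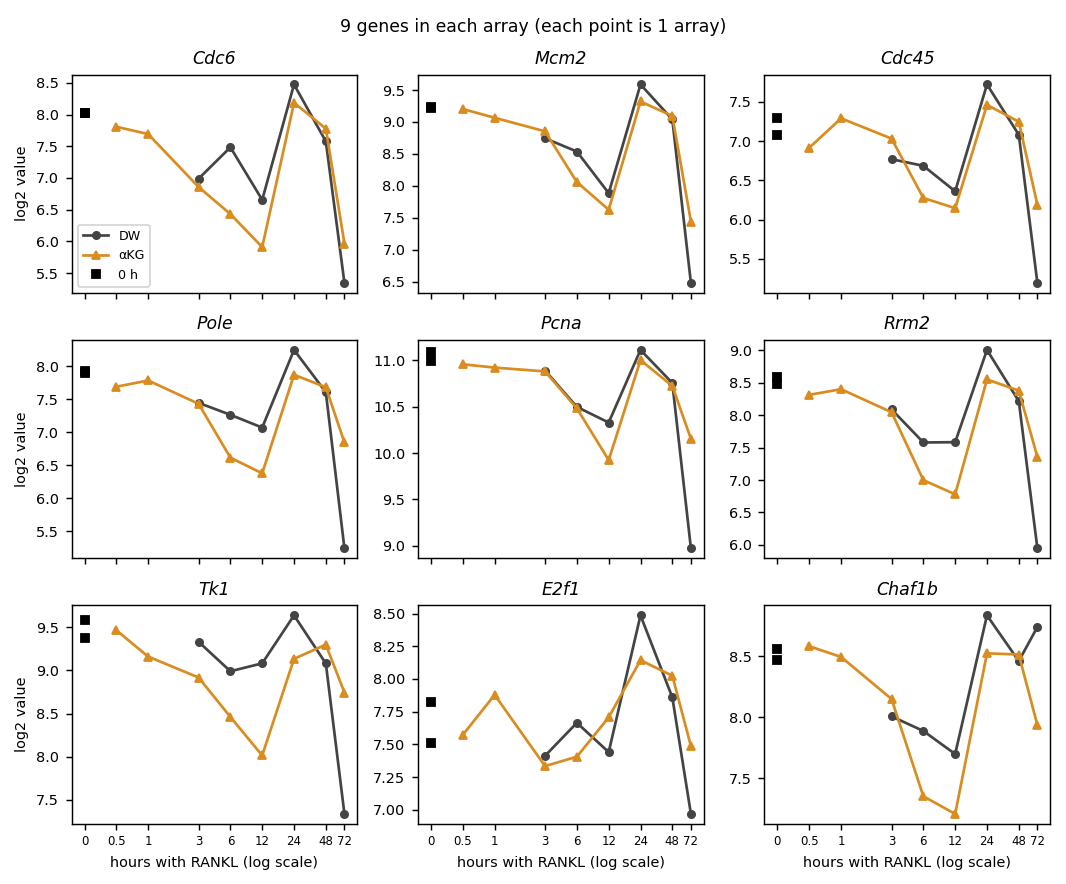
Log2 values of 9 genes in every array over hours with RANKL (log scale), with DW as circles, αKG as triangles and the 0 h arrays as squares at the left. In 8 panels the DW line ends at 72 h below the αKG line; Chaf1b, shown because its values stood out, ends above it at 8.74 against 7.93.

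Chaf1b, the middle subunit of chromatin assembly factor 1, differed from the other genes at 72 h. At 72 h with DW it read 8.74, above its 48 h value of 8.46 and its 0 h values of 8.47 and 8.56, where the other 41 genes were below 0 h. With αKG it read 7.93 at 72 h. Like the rest, it went from 7.70 and 7.21 at 12 h to 8.84 and 8.53 at 24 h. Its correlation with the mean of the other 41 genes over the 16 arrays was 0.47, the lowest of all. The next were Rfc2 (0.71), Rfc1 (0.73), E2f1 (0.75), Cdt1 (0.79) and Ung (0.80), and 33 genes lay at 0.89 or above, led by Mcm4 (0.99) and Rrm2 (0.99). These correlations describe arrays that share a time course and have no independent replicates.

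Against 0 h, no replication gene passed in limma in any phase of either arm. A phase averages 2 times that differed. With DW the median relative to 0 h was -0.71 at 12 h and 0.37 at 24 h, and -0.08 at 48 h and -1.84 at 72 h. With αKG it was -1.16 at 12 h and 0.04 at 24 h. The spread of this fit also holds such changes, so it cannot show that single times equal 0 h. With DW, 0 of 42 passed in early arrays (0.341% of all genes called, 0 at an unadjusted p below 0.05), 0 in intermediate arrays (0.779%, 0 unadjusted) and 0 in late arrays (6.64%, 7 unadjusted). With αKG, 0 of 42 passed in fast arrays (0.0% of all genes called and 540 genes unadjusted, none of them among the 42), early arrays (0.502%, 1 unadjusted), intermediate arrays (0.67%, 0 unadjusted) and late arrays (1.43%, 0 unadjusted). The median difference was -0.41, -0.23 and -0.98 in early, intermediate and late DW arrays, and -0.09, -0.63, -0.55 and -0.48 in fast, early, intermediate and late αKG arrays. The smallest adjusted p was 0.172, for Tk1 in late DW arrays (-1.27 ± 0.50). Without the DW 48 h array, 24 genes stood below 0 h by the test (8.01% of all genes did), and the comparison then rests on the 72 h array alone. With only the 2 groups of a comparison in the fit, 15 genes fell in early DW arrays (1.98% of all genes fell) and 8 in early αKG arrays (2.29%). These comparisons share the 0 h arrays.

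The effect of αKG was read at the 6 times that both arms hold. At 3 h the arms lay together, with 20 genes higher and 22 lower with αKG (median -0.01). At 6 h all 42 were lower (median -0.39), at 12 h 41 were (median -0.46, E2f1 being higher by 0.27), and at 24 h 41 were (median -0.29, Ung being higher by 0.20). At 48 h the arms lay together again, with 21 genes on each side (median 0.001), and at 72 h 41 genes were higher with αKG (median 0.96) and Chaf1b was lower (-0.81). The medians over all tested genes lay between -0.01 and 0.02 at the 6 times. At 3, 6, 12, 24, 48 and 72 h, 46.4%, 49.2%, 52.0%, 48.1%, 48.9% and 53.1% of all tested genes were higher with αKG. In all, 39 genes were lower with αKG at 6, 12 and 24 h and higher at 72 h, and 0 genes kept 1 sign at all 6 times. For these patterns over several times the share over all tested genes was not computed. The largest gaps were -1.05 for Cdc6 at 6 h, -1.07 for Tk1 at 12 h, -0.63 for Tyms at 24 h and 1.61 for Prim1 at 72 h. The arms share no array, but there is 1 array per arm at each time, so the value at a single time has no test of its own.

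**Figure D4:**
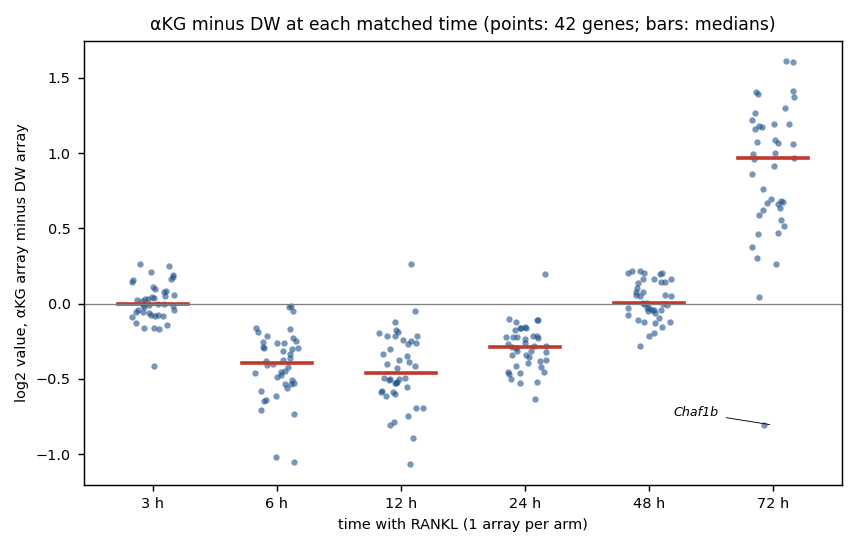
Each point is 1 of the 42 genes, as the log2 value of the αKG array minus that of the DW array at each time, and red bars are medians. The medians run from -0.01 at 3 h through -0.39, -0.46 and -0.29 to 0.001 at 48 h and 0.96 at 72 h, where Chaf1b alone lies below 0.

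With time as a block, no replication gene passed in limma for αKG. Over the 6 times 0 of 42 were called (0.399% of all genes, 1 replication gene at an unadjusted p below 0.05), and the median was -0.01. In early arrays 0 were called (0.161%, 1 unadjusted, median -0.18), and in intermediate arrays 0 (0.0966%, 9 unadjusted, median -0.36), where all 42 differences were below 0. The lowest of these was -0.79 ± 0.24 for Tk1, and the smallest adjusted p was 0.325, for Dut (-0.51 ± 0.15). In late arrays 0 were called (4.27%, 20 unadjusted, median 0.44), where 41 differences were above 0, from 0.88 ± 0.27 for Prim1 and 0.81 ± 0.24 for Tk1 (adjusted p = 0.0973, limma) down to Chaf1b at -0.38. The change of the effect from early to late arrays was 0.64 in the median (0 of 42 called, 0.605% of all genes, 21 unadjusted), with 1.29 ± 0.33 for Tk1 (adjusted p = 0.122, limma). From intermediate to late arrays it was 0.84 (0 of 42 called, 0.103%, 35 unadjusted), a contrast added after the values were seen, with 1.60 ± 0.33 for Tk1 (adjusted p = 0.152, limma). Of all 15526 tested genes, 2061 had an unadjusted p below 0.05 over the 6 times. In early, intermediate and late arrays 1324, 1452 and 2979 did. For late minus early it was 2271 genes, and for late minus intermediate 1821. By sign, 7639 of all tested genes were below 0 in intermediate arrays and 8085 above 0 in late arrays.

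Without the 48 h pair, where the arms lay together, 31 genes rose with αKG and Chaf1b fell (6.92% of all genes rose), and without the 72 h pair 0 were called. The change from early to late arrays was then called for 30 genes (5.94% of all genes rose) and that from intermediate to late for 33 (4.25%), and for 0 in each case without the 72 h pair. In these fits the late effect is 1 array against 1, and its error comes from the other times. The DW array at 72 h is the array that stood apart from all others. Osteoclast markers also differed at this time, with a mean of 9.52 with αKG and 11.33 with DW, and all 8 fell with αKG in late arrays. Neutrophil markers were at 5.02 and 4.89, and 1 of 9, Camp, rose with αKG in late arrays (0.69 ± 0.14). Camp lost this call without the 72 h pair (0.66 to 0.72 with 1 late pair left out). Of all 15526 tested genes, 325 rose and 338 fell with αKG in late arrays. The part of either set of markers in the result was not tested.

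Related genes were followed in 3 other lists, with the calls of the same limma fits. Of 43 tested genes among 47 other replication and fork genes, 26 rose from 12 to 24 h (median 0.76), where 10.4% of all genes rose. From 48 to 72 h 33 fell and 1 rose (median -0.94), where 11.4% of all genes fell and 8.21% rose. Orc2, an origin recognition subunit, rose by 1.36 ± 0.16 and fell by 1.20 ± 0.16. Exo1, an exonuclease, rose by 1.69 ± 0.22 and fell by 1.65 ± 0.22, and Dctd, a deaminase of nucleotide supply, rose by 2.04 ± 0.24. Hells, a chromatin remodeller, fell by 2.73 ± 0.38. Pold4, a small subunit of polymerase delta named here because it was the one gene to rise from 48 to 72 h, rose by 0.57 ± 0.17 and fell with αKG in late arrays (-0.56 ± 0.11), where Dck, deoxycytidine kinase, rose (0.79 ± 0.16). With 1 array left out, 12 (without DW 24 h, where 4.55% of all genes rose) to 18 genes of the list (without αKG 24 h, 7.77%, or DW 12 h, 5.66%) rose from 12 to 24 h. At the step from 48 to 72 h 11 (without DW 48 h, where 4.39% of all genes fell) to 39 (without αKG 72 h, 15.0%) fell. Orc2, Exo1, Dctd and Hells kept these calls. Pold4 lost its rise without the DW 48 h, DW 72 h or αKG 48 h array (0.35 at the lowest), and Pold4 and Dck lost the αKG calls without the 72 h pair (Dck then 0.45).

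Of 32 tested genes among 33 of G1/S control, 13 rose and 3 fell from 12 to 24 h (median 0.47), where 10.4% of all genes rose and 10.2% fell. From 48 to 72 h 17 fell and 3 rose (median -0.68), where 11.4% of all genes fell and 8.21% rose. The 3 of 32 that fell and then the 3 of 32 that rose are near the share over all genes. Myc, a growth-promoting transcription factor, rose by 3.90 ± 0.28 from 12 to 24 h and fell by 2.06 ± 0.28 from 48 to 72 h. Ccnd1, cyclin D1, rose by 3.43 ± 0.37 and fell by 3.36 ± 0.37, and its kinase partner Cdk6 rose by 1.75 ± 0.12 and fell by 1.42 ± 0.12. Cdc25a, the phosphatase that activates the kinases, rose by 1.5 ± 0.16 and fell by 1.45 ± 0.16. Those 3, named because they were the ones that fell and the ones that rose, are Cdkn1b, the kinase inhibitor p27 (-1.27 ± 0.16, then 0.99 ± 0.16), and the retinoblastoma-family genes Rbl2 (-1.04 ± 0.15, then 0.55 ± 0.15) and Rb1 (-0.66 ± 0.18, then 0.66 ± 0.18). With αKG in late arrays Ccnd1 (1.09 ± 0.20), E2f2 (0.90 ± 0.16) and Ccnd3 (0.67 ± 0.14) rose and Cdkn1b fell (-0.48 ± 0.11). In late αKG arrays 4.27% of all genes were called. At the step from 6 to 12 h 4 genes of this list fell (1.22% of all genes fell), among them Ccnd1 (-2.42 ± 0.37), Myc (-1.90 ± 0.28) and Cdk6 (-1.43 ± 0.12). With 1 array left out, 7 (without DW 24 h, where 4.55% of all genes rose) to 10 genes of the list (without αKG 24 h, 7.77%) rose from 12 to 24 h. From 48 to 72 h 9 (without DW 48 h, where 4.39% of all genes fell, or αKG 48 h, 5.04%) to 20 (without αKG 72 h, 15.0%) fell. Myc, Ccnd1, Cdk6, Cdc25a and Cdkn1b kept their calls at both of these steps. Rb1 lost its fall without any 1 of the 4 arrays (-0.74 to -0.59), and Rbl2 and Rb1 lost their rise without DW 48 h, αKG 48 h or αKG 72 h (0.40 each at the lowest). From 6 to 12 h, Ccnd1 lost its fall without any 1 of the 4 arrays (-2.73 to -2.11) and Myc without αKG 6 h or αKG 12 h (-1.33 at the weakest). Of the αKG calls, those of E2f2 and Ccnd3 were lost without the 72 h pair (0.85 and 0.46), and that of Cdkn1b without the 48 h or the 72 h pair (-0.54 to -0.42).

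The median of the mitosis genes (17 tested of 18) stood below 0 h at 24 h, when that of the replication genes peaked. At 24 h it was -0.40 relative to 0 h with DW and -1.09 with αKG, where the replication genes were at 0.37 and 0.04. By 48 h both medians were near 0 h (mitosis genes -0.04 and -0.08, replication genes -0.08 in each arm). At 72 h the mitosis median was -1.91 with DW and -0.47 with αKG. From 12 to 24 h the median difference was -0.03, and 2 of 17 were called, both lower, which is near the 10.2% of all genes that fell. From 48 to 72 h the median difference was -1.06 and 3 of 17 fell, among them Bub1, a spindle checkpoint kinase, and Aurka, a spindle kinase, where 11.4% of all genes fell. That count rested on single arrays: it was 17 without the αKG 72 h array (15.0% of all genes fell) and 1 without the DW 72 h array (7.66%), and no call was left without the DW 48 h (4.39%) or αKG 48 h array (5.04%). The E2F motifs were found for 1 of 16 mitosis genes (6.25%), and the CHR element for 11 of 16 (68.8%), against 33.3% and 20.5% of the other replication genes.

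**Figure D5:**
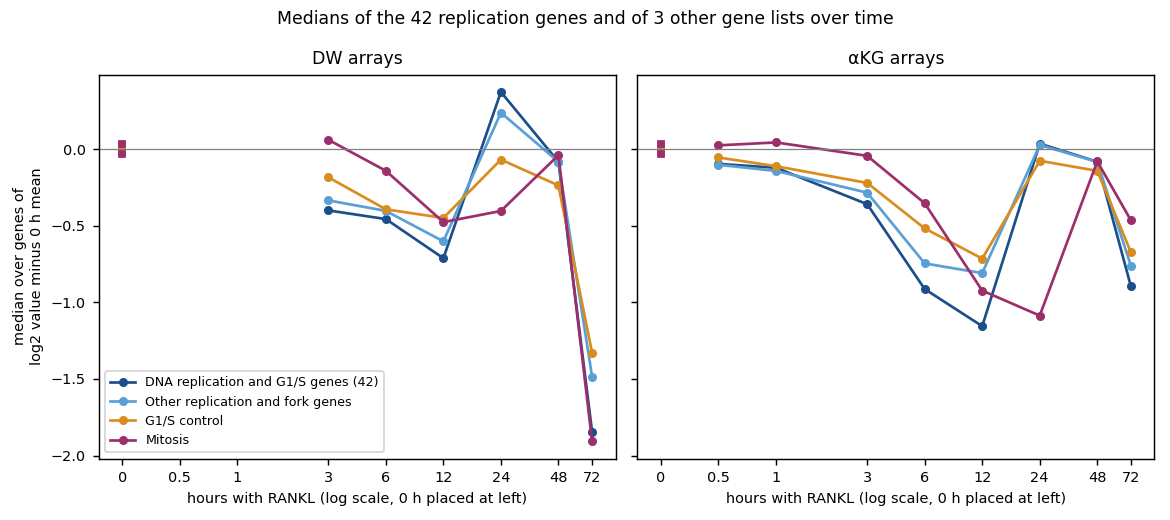
Lines are medians of log2 values minus the 0 h mean for the 42 replication genes and 3 other lists, over hours with RANKL (log scale, 0 h at the left), with DW on the left and αKG on the right. The replication medians peak at 24 h (0.37 with DW), when mitosis genes are at -0.40 with DW and -1.09 with αKG.

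Tested genes outside the list were ranked by how like the mean of the replication genes their values over the 16 arrays were. Predicted, clone-named, microRNA and snoRNA genes were left out of this ranking. The most alike were Hrob (r = 0.99), Usp1 (0.99), Topbp1 (0.99), Wdr76 (0.98), Mms22l (0.98), Rad51ap1 (0.98), Dnajc9 (0.98), Blm (0.98), Cdca7l (0.98) and Ppil1 (0.98). Topbp1, which helps activate origins, is in the list of other replication genes, and the other 9 are in none of the 3 lists. The points of these correlations share their arrays and their time course.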

How the data were processed

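Total RNA of 16 samples was measured on one-colour microarrays (biotin label, GeneChip WT Terminal labelling, per the labels' protocols). The authors deposited 1 table of log2 values per feature; that these are log2 was taken from their range, 0.613 to 13.249. How they were summarised and normalized, and on which build, is not given in the sources used here. The number of arrays, 1 per arm at each time, limits the precision. The platform annotation gave 23521 of 33793 features 1 symbol, 1814 several and 8458 none, and 23328 of the 23521 matched a gene in the RefSeq table. The feature with the highest mean stood for each of the 22180 genes, and the lowest 30% by mean (under 4.34 log2) were left out. In R 4.3.3, limma 3.58.1 (lmFit, and eBayes with an intensity trend) was run on the values as deposited, with Benjamini-Hochberg adjustment over 15526 genes and a threshold of 0.05. Phases were compared with 0 h in 1 fit of 8 groups. αKG was tested over 12 arrays with time as a block, and steps between neighbouring times over the same arrays with the arm as a block. Errors after ± are limma's standard errors, on the log2 scale. The alternatives were the filter, quantile normalization, centring on array medians, no intensity trend, the mean of all features, other blocks and groups, and leaving out each array or pair.

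The arms share times and no replicate numbers. Arrays of the same time deviated together (correlation of deviations 0.50 to 0.75, and 6 of 6 DW arrays correlated best with their own time). The genes, the other lists and the markers were chosen with earlier results of these data known. Values in every array are printed for the 2 genes of each role with the widest range over the arrays, and for Pcna, Mcm2, Cdc6, Rrm2 and E2f1. Other replication genes are given by ranges and counts, and a value singled out beyond this, as for Chaf1b, Cdt1 and the genes that passed at neither step, was chosen after values were seen. Of each other list at most 4 genes with the smallest p were named per comparison, with exceptions marked. Promoter letters are from RefSeq (GRCm38.p6).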

Additional observations from a re-analysis of the deposited data

Results flagged for a closer look

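The median of the 42 replication genes, as αKG minus DW, changed sign between phases. In late arrays both pairs were above 0 (0.001 at 48 h and 0.96 at 72 h) and in early arrays both were below 0 (-0.01 at 3 h and -0.39 at 6 h), a difference of 0.68 log2 between the phase means. Against intermediate arrays (-0.46 at 12 h and -0.29 at 24 h) the difference was 0.86 log2. The difference was not tested for the median, and the medians at 3 and 48 h lie close to 0. For single genes it was tested with limma, and 0 of 42 passed for late minus early (21 at an unadjusted p below 0.05) or for late minus intermediate (35 unadjusted), a contrast added after the values were seen. Every pair took opposite signs in late and early arrays for 10 of 42 genes, and in late and intermediate arrays for 19. The share of all tested genes with such opposite signs was not computed, so these counts cannot be called particular to the replication genes.

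Cdkn2b, the kinase inhibitor p15 that blocks cyclin D kinases and a gene of the G1/S control list, differed between phases by the test itself. Its αKG effect was 0.84 ± 0.12 in early arrays (adjusted p = 0.0366, limma) and -0.46 ± 0.12 in late arrays (adjusted p = 0.0636). Late minus early was -1.29 ± 0.16 (adjusted p = 0.0189, limma). Without the 3 h or the 6 h pair neither the early effect nor the difference passed (the difference was -1.35 to -1.24 over the 4 fits that leave out 1 pair, with an adjusted p of 0.00218 to 0.263).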

How the results depend on the processing

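With 1 array or pair left out, the number of the 42 genes called ran from 9 to 20 from 12 to 24 h (27 with all arrays) and from 10 to 41 from 48 to 72 h (34 with all arrays). For late DW arrays against 0 h it ran from 0 to 24, for the late αKG effect from 0 to 32, for late minus early from 0 to 30 and for late minus intermediate, added after seeing the data, from 0 to 33. In these last 4 comparisons the counts above 0 come from leaving out the 48 h array or pair. With only the 2 groups compared in the fit, 15 genes were called in early DW arrays and 8 in early αKG arrays, all lower, where the fit of 8 groups called 0. The cause was not tested. Under the other alternatives the count stayed at 25 to 28 from 12 to 24 h and 33 to 34 from 48 to 72 h, and none of the recomputed results changed direction. Of the 17 genes printed for every array, each under 11 alternatives at both steps, 37 results lost the call from 12 to 24 h (150 did not change) and 22 from 48 to 72 h (163 did not change), where 2 gained it. No paired analysis by replicate number was possible because the labels number replicates only at 0 h; time served as the block. With 1 array per arm and time, no value at a single time has a replicate.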
